A study of Mus musculus with 4 samples.

Results

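Genes of the tricarboxylic acid (TCA) cycle, of pyruvate use and of branched-chain amino acid breakdown were examined in perivascular adipose tissue (PVAT) after vascular injury. The genes were taken by symbol from a list of 44 fixed names, and all 44 are among the 12661 genes of the deposited table. They comprise 24 genes of the TCA cycle and pyruvate use and 20 genes of branched-chain amino acid breakdown. PVAT is the fat that surrounds a blood vessel. The bulk RNA-seq libraries were made from the tissue around the femoral artery of wild type C57BL/6 female mice that were 11 weeks old and had been ovariectomized, so that both groups lacked the ovaries. In the injury group a spring wire had been inserted into the femoral artery, the other group had a sham operation, and tissue was collected 48 h later, with 2 libraries per group. The labels do not say whether the libraries of a group came from separate animals or from pools, so p-values rest on the spread between libraries, which may be technical in part.

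The TCA cycle runs in mitochondria and oxidizes acetyl-CoA to carbon dioxide while it passes electrons to the respiratory chain. Pyruvate enters it through the pyruvate dehydrogenase complex, which kinases switch off, or through pyruvate carboxylase. Leucine, isoleucine and valine lose their amino group to the transaminases BCAT1 and BCAT2, are then committed to oxidation by the branched-chain ketoacid dehydrogenase complex, and end as acetyl-CoA or as the TCA intermediate succinyl-CoA. Brown and beige fat, in which mitochondria are dense, is known to burn both glucose and branched-chain amino acids, and white adipocytes break down branched-chain amino acids as they mature.

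The deposited values are signed numbers that were treated as a log scale. Neither the base of the scale nor what a value of 0 stands for is stated, so differences between groups are compared, levels are not compared between genes, and no fold change is given. Values and differences below are in these deposited units. The groups were compared with limma over all 12661 genes with Benjamini-Hochberg adjustment, and a gene was called at an adjusted p-value under 0.05. Sequencing depth is unknown, so precision was judged from the spread between the 2 libraries of a group. For each gene limma draws this spread toward that of all genes (prior degrees of freedom 3.48, residual 2). In bulk tissue, fewer cells of a type and less RNA per cell cannot be told apart.

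Most of the listed TCA cycle and pyruvate genes had higher values after injury, whereas the listed branched-chain amino acid genes were divided. The list had been chosen with earlier results of these data known. Of the 24 TCA and pyruvate genes, 5 were called higher (*Sucla2*, *Dlst*, *Ogdh*, *Pdha1* and *Cs*) and 0 lower, where 3.76% of all genes tested were called higher and 3.67% lower. Both injury libraries lay above both sham libraries in 22 of the 24 genes, against 31.6% of all genes, and below them in 1, *Pcx*, against 30.3% of all genes. Their median difference was 0.49, beside 0.0085 over all genes. Of the 20 branched-chain amino acid genes, 0 were called in either direction, while at an unadjusted p-value under 0.05 from limma 5 were higher and 0 lower, against 14.8% of all genes in the higher and 14.8% in the lower direction. By the same unadjusted measure 16 of the TCA and pyruvate genes were higher and 0 lower. The injury libraries lay above the sham libraries in 9 of these 20 genes and below in 3, with a median difference of 0.15. No test of the difference between the 2 sets of genes was made.

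**Figure D1:**
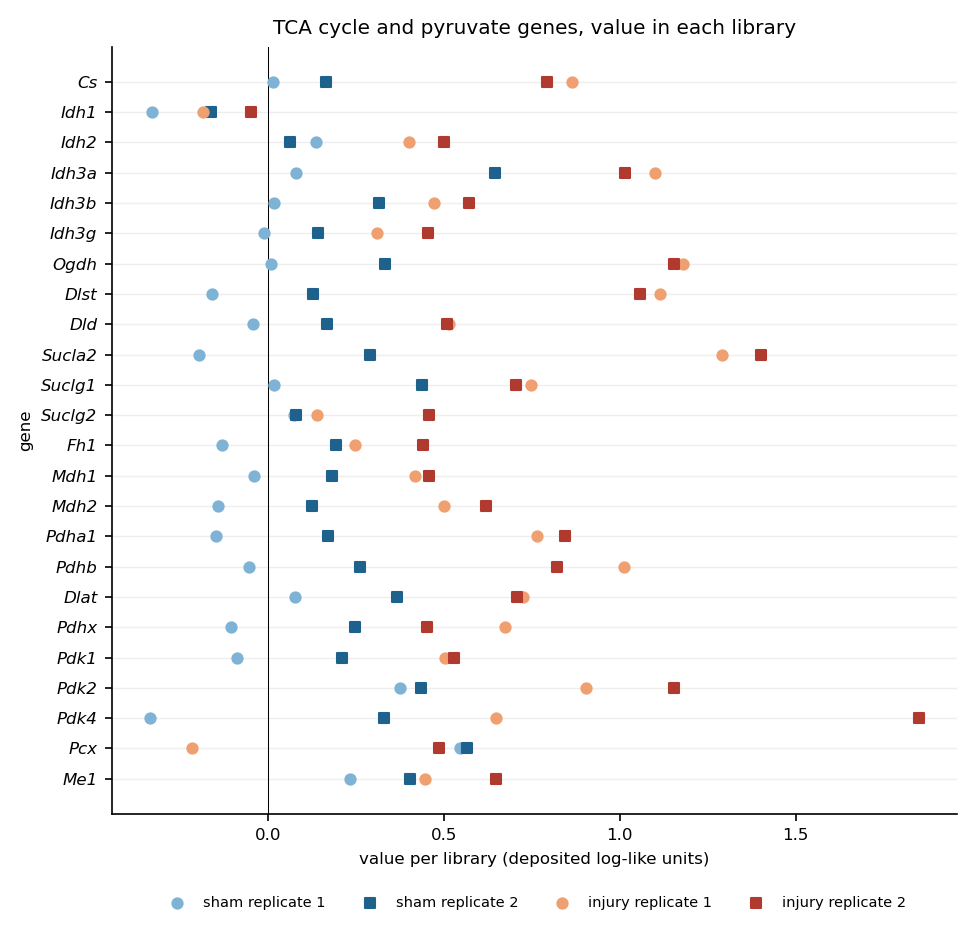
The horizontal axis gives the deposited value of each of the 24 TCA cycle and pyruvate genes (rows) in each library, with circles for replicate 1 and squares for replicate 2, blue for sham and red or orange for injury. In 22 genes both injury points lie to the right of both sham points, and in *Pcx* both lie to the left.

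The highest differences of the cycle itself were those of *Sucla2*, *Dlst* and *Ogdh*. These act around 2-oxoglutarate and succinyl-CoA, where *Suclg1*, *Dld* and *Suclg2* differed by less (0.50, 0.45 and 0.22). *Sucla2*, the ADP-specific beta subunit of succinyl-CoA synthetase on chromosome 14 (mm9, 73925126 to 73995949), was measured at -0.20 and 0.29 after sham operation, with 1.29 and 1.40 after injury. The 2 injury libraries were close to each other and well above the sham libraries, which were 0.49 apart. The groups lay 1.30 apart (limma adjusted p = 0.0309, standard error 0.20), and 97.4% of all genes had a lower difference. *Dlst*, the succinyl-transferring core subunit of the 2-oxoglutarate dehydrogenase complex on chromosome 12 (mm9, 86451783 to 86475041), was at -0.16 and 0.13 after sham operation and at 1.12 and 1.06 after injury, a difference of 1.10 (standard error 0.16, adjusted p = 0.0291 from limma). *Ogdh*, the decarboxylating subunit of the same complex on chromosome 11 (mm9, 6191636 to 6256645), stood at 0.0080 and 0.33 in the sham and at 1.18 and 1.16 in the injury libraries. The groups lay 0.998 apart (standard error 0.16, limma adjusted p = 0.0330). In both genes the gap between the groups was larger than the gap within either group. *Cs*, citrate synthase, which starts the cycle and lies on chromosome 10 (mm9, 127774888 to 127799535), was at 0.013 and 0.16 after sham operation and at 0.86 and 0.79 after injury. The groups lay 0.74 apart (limma adjusted p = 0.0435, standard error 0.14). Without sham replicate 1 the difference of *Sucla2* was 1.06, that of *Dlst* 0.96, that of *Ogdh* 0.84 and that of *Cs* 0.66. All 4 lost their call without either sham library and without injury replicate 1. Without a sham library nearly all calls over all genes were lost, so that loss says nothing particular about these 4.

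The other enzymes of the cycle were higher by less and were not called. *Idh3a*, the catalytic subunit of the NAD-dependent isocitrate dehydrogenase, had 0.079 and 0.65 under sham operation but 1.10 and 1.02 under injury, and its difference of 0.70 (adjusted p = 0.108 from limma) was close in size to that of *Cs*, with sham libraries much further apart. Its partner subunits *Idh3b* and *Idh3g* differed by 0.36 and 0.32. *Mdh2*, the mitochondrial malate dehydrogenase, was at -0.14 and 0.13 after sham operation and at 0.50 and 0.62 after injury (difference 0.57, adjusted p = 0.0855 from limma). Its groups did not overlap. *Dld*, the dihydrolipoamide dehydrogenase that the pyruvate, 2-oxoglutarate and branched-chain complexes share, was at 0.51 in both injury libraries and at -0.043 and 0.17 in the sham libraries, a difference of 0.45 (adjusted p = 0.115 from limma). *Fh1*, fumarate hydratase, differed by 0.31. The lowest difference of the 15 cycle enzymes was that of *Idh1*, the cytosolic NADP-dependent isocitrate dehydrogenase. It read -0.33 and -0.16 after the sham operation against -0.18 and -0.048 after injury, the one overlap among the 15 genes, and its difference of 0.13 (adjusted p = 0.599 from limma) had a 95% interval from -0.24 to 0.50. The mitochondrial *Idh2* differed by 0.35 and the cytosolic *Mdh1* by 0.37.

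Succinyl-CoA synthetase pairs one alpha subunit, *Suclg1*, with either of the beta subunits *Sucla2*, which makes ATP, or *Suclg2*, which makes GTP. *Suclg1* was measured at 0.015 and 0.44 after sham operation, with 0.75 and 0.70 after injury, a difference of 0.50 (adjusted p = 0.146 from limma). *Suclg2* stood at 0.074 and 0.078 in the sham and at 0.14 and 0.46 in the injury libraries. The value of *Suclg2* in injury replicate 1 was thus close to the sham libraries, and its difference of 0.22 (95% interval -0.18 to 0.63, adjusted p = 0.414 from limma) was the lowest of the 3. Within a library, *Sucla2* minus *Suclg2* was -0.27 and 0.21 after sham operation and 1.15 and 0.95 after injury. This signed gap was higher in both injury libraries than in either sham library, by 1.08 between the group means, which is the excess of the difference of *Sucla2* over that of *Suclg2*. For one value such as this, the smallest two-sided p-value that exact permutation of 2 and 2 libraries allows is 0.333. The same held for *Dlst* set against the acyltransferase subunits of the 2 sister complexes. *Dlst* minus *Dlat* of pyruvate dehydrogenase was -0.24 and -0.24 in the sham libraries and 0.39 and 0.35 in the injury libraries. *Dlst* minus *Dbt* of branched-chain ketoacid dehydrogenase was -0.29 and -0.23 in the sham libraries and 0.61 and 0.41 in the injury libraries.

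The subunits of the pyruvate dehydrogenase complex and the kinases that inhibit it had injury values above their sham values, with 1 of the 7 genes called. *Pdha1*, the catalytic alpha subunit on the X chromosome (mm9, 156560141 to 156576345), had -0.15 and 0.17 under sham operation but 0.77 and 0.84 under injury. The groups lay 0.79 apart (limma adjusted p = 0.0499, standard error 0.16), just under the threshold, and it was not called after quantile normalization, with a robust variance prior or with columns scaled to one spread (adjusted p = 0.0585, 0.0516 and 0.0503 from limma). With any 1 library left out it was not called either, with differences of 0.63 to 0.95, though without a sham library nearly no gene was called. *Pdhb*, the beta subunit, was at -0.054 and 0.26 after sham operation and at 1.01 and 0.82 after injury. Its difference of 0.81 missed the threshold (adjusted p = 0.0516 from limma), and it was called after quantile normalization of the 4 columns, with columns scaled to one spread and without injury replicate 2 (adjusted p = 0.0482, 0.0448 and 0.0459 from limma). The 2 subunits thus lay at the threshold from either side with nearly the same difference. *Dlat*, the acetyl-carrying core subunit, differed by 0.50. *Pdhx*, which anchors *Dld* to that core, read -0.11 and 0.25 after the sham operation against 0.67 and 0.45 after injury, a difference of 0.49 (adjusted p = 0.148 from limma). In none of the 4 subunits did the groups overlap.

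Of the kinases, *Pdk4*, which fasting and fatty acids are known to induce, had the highest difference and the widest spread. Its sham values were -0.34 and 0.33 and its injury values 0.65 and 1.85, so that the injury libraries were 1.20 apart. The difference of 1.25 (95% interval 0.16 to 2.34, adjusted p = 0.132 from limma) was not called. Dropping injury replicate 2 left 0.65 and dropping injury replicate 1 left 1.85, so that 1 library set much of its size. *Pdk2*, the broadly expressed kinase, was at 0.38 and 0.43 after sham operation and at 0.90 and 1.16 after injury, a difference of 0.63 (adjusted p = 0.0664 from limma). *Pdk1*, known as a target of the hypoxia factor HIF-1, was at -0.088 and 0.21 and at 0.50 and 0.53, a difference of 0.46 (adjusted p = 0.133 from limma). All 3 kinases thus had injury libraries above their sham libraries, as had the 4 subunits of the complex they inhibit, and none of the 3 was called.

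Of the 2 genes that feed or drain the cycle around pyruvate dehydrogenase, one stood lower and one higher after injury, and neither was called. *Pcx*, pyruvate carboxylase, which replenishes oxaloacetate and serves fatty acid synthesis in white adipocytes, was measured at 0.54 and 0.56 after sham operation, with -0.22 and 0.49 after injury. Both injury libraries were lower, injury replicate 1 by far more than injury replicate 2. The difference of -0.42 (95% interval -1.04 to 0.20, adjusted p = 0.322 from limma) came to -0.069 when injury replicate 1 was dropped and to -0.77 when injury replicate 2 was, where it was called (adjusted p = 0.0405 from limma). *Me1*, the cytosolic malic enzyme that makes NADPH for lipogenesis, was at 0.23 and 0.40 after sham operation and at 0.44 and 0.65 after injury, a difference of 0.23 (adjusted p = 0.374 from limma).

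**Figure D2:**
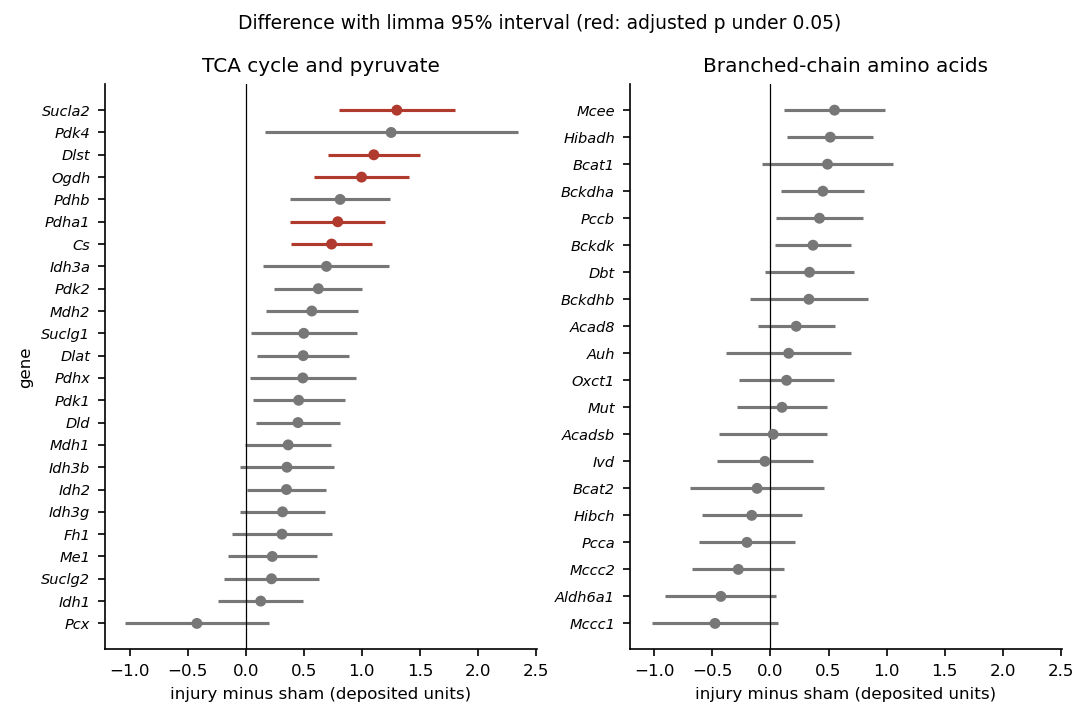
Each point is the difference injury minus sham of 1 gene in deposited units (horizontal axis), and each line its 95% interval from limma, for the TCA and pyruvate genes (left) and the branched-chain amino acid genes (right), ordered by size. Red marks the 5 genes with an adjusted p-value under 0.05, which are all on the left, where 23 of 24 points lie above 0, against 13 of 20 on the right.

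No branched-chain amino acid gene was called, and the genes of the committing enzyme complex had injury values above their sham values. *Bckdha*, the catalytic alpha subunit of branched-chain ketoacid dehydrogenase, stood at 0.067 and 0.16 in the sham and at 0.49 and 0.65 in the injury libraries, a difference of 0.45 (adjusted p = 0.110 from limma). *Bckdhb* and *Dbt*, its beta subunit and its acyltransferase core, differed by 0.33 and 0.34. In *Bckdhb* the injury values were 0.13 and 0.62, of which the lower one was above the higher sham value by under 0.01. *Bckdk*, the kinase that inhibits the complex, varied little within a group, at -0.11 and -0.12 after sham operation and at 0.24 and 0.26 after injury. Its difference of 0.37 (standard error 0.13, adjusted p = 0.139 from limma) kept to 0.36 to 0.38 when any library was dropped. As its own spread was small, that standard error came mostly from the spread over all genes. None of these 4 genes was called.

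The transaminases that open the pathway were not called and had differences of opposite sign. *Bcat2*, the mitochondrial form, which is the main one in adipocytes, had 0.81 and 0.53 under sham operation but 0.27 and 0.84 under injury. The injury libraries lay on either side of the sham libraries, and the difference of -0.12 had a 95% interval from -0.69 to 0.46 (adjusted p = 0.776 from limma). *Bcat1*, the cytosolic form, was at -0.995 and -0.55 after sham operation and at -0.076 and -0.48 after injury, a difference of 0.49 (95% interval -0.071 to 1.05, adjusted p = 0.215 from limma). *Bcat1* was 1 of 2 genes of the 20 with the higher injury value in replicate 1. The macrophage markers shared that order in 8 of 10 genes, with medians over the list of 0.46 in injury replicate 1 and -0.14 in injury replicate 2. Neutrophil markers shared it in 6 of 6 and genes taken for mitochondrial mass in 9 of 12. The part of any of these in the value of *Bcat1* was not tested.

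In the leucine branch the highest difference was 0.16 and the lowest -0.48. *Mccc1*, the biotin-carrying subunit of methylcrotonyl-CoA carboxylase, read 0.42 and 0.62 after the sham operation against -0.23 and 0.31 after injury, the lowest difference of the list (-0.48, 95% interval -1.02 to 0.064, adjusted p = 0.211 from limma). With injury replicate 1 dropped it came to -0.21. Its partner *Mccc2* was at 0.30 and 0.48 after sham operation and at -0.0034 and 0.23 after injury, a difference of -0.28 (adjusted p = 0.306 from limma). For both subunits of this carboxylase, each injury library lay under each sham library. *Ivd*, isovaleryl-CoA dehydrogenase, the step before the carboxylase, overlapped between the groups with a difference of -0.048. *Auh*, the hydratase that acts after the carboxylase, was measured at -0.30 and 0.19 after sham operation, with -0.036 and 0.24 after injury, which overlapped as well (difference 0.16, adjusted p = 0.670 from limma).

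Of the 5 valine and isoleucine genes, *Hibadh*, 3-hydroxyisobutyrate dehydrogenase, was at -0.019 and 0.13 after sham operation and at 0.48 and 0.66 after injury. Its difference of 0.52 (standard error 0.15, adjusted p = 0.0912 from limma) had the lowest adjusted p-value of the 20 genes. *Aldh6a1*, methylmalonate semialdehyde dehydrogenase, which takes the product of *Hibadh*, was at 0.44 and 0.46 after sham operation and at -0.21 and 0.25 after injury, a difference of -0.43 (95% interval -0.91 to 0.052, adjusted p = 0.208 from limma), which came to -0.20 with injury replicate 1 dropped. These 2 successive steps of valine breakdown therefore lay on opposite sides of their sham levels in both injury libraries. *Hibch*, the hydrolase just before *Hibadh*, overlapped between the groups (difference -0.16). *Acad8*, isobutyryl-CoA dehydrogenase, was at -0.12 and -0.066 after sham operation and at 0.14 and 0.12 after injury, a difference of 0.22 (adjusted p = 0.323 from limma). *Acadsb*, the short branched-chain acyl-CoA dehydrogenase of isoleucine, had the smallest difference of the 44 genes (0.023, 95% interval -0.44 to 0.49).

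Propionyl-CoA from valine and isoleucine is carboxylated by a complex of *Pcca* and *Pccb*, turned by the epimerase *Mcee* and converted to succinyl-CoA by the mutase *Mut*. *Mcee* had the highest difference of the 20 genes (0.55, standard error 0.17, adjusted p = 0.110 from limma), with -0.28 and 0.074 after sham operation against 0.38 and 0.52 after injury. *Pccb* was at 0.14 and 0.23 after sham operation and at 0.49 and 0.73 after injury, a difference of 0.42 (adjusted p = 0.140 from limma). *Pcca*, the other subunit of the same enzyme, stood at 0.30 and 0.53 in the sham and at 0.096 and 0.33 in the injury libraries, a difference of -0.20 (95% interval -0.61 to 0.21, adjusted p = 0.460 from limma). Within a library *Pccb* minus *Pcca* was -0.16 and -0.30 after sham operation and 0.40 and 0.40 after injury, so that this signed gap was higher by 0.62 after injury. *Mut* overlapped between the groups (difference 0.099), and so did *Oxct1*, which activates ketone bodies outside the liver (difference 0.14, 95% interval -0.27 to 0.55).

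**Figure D3:**
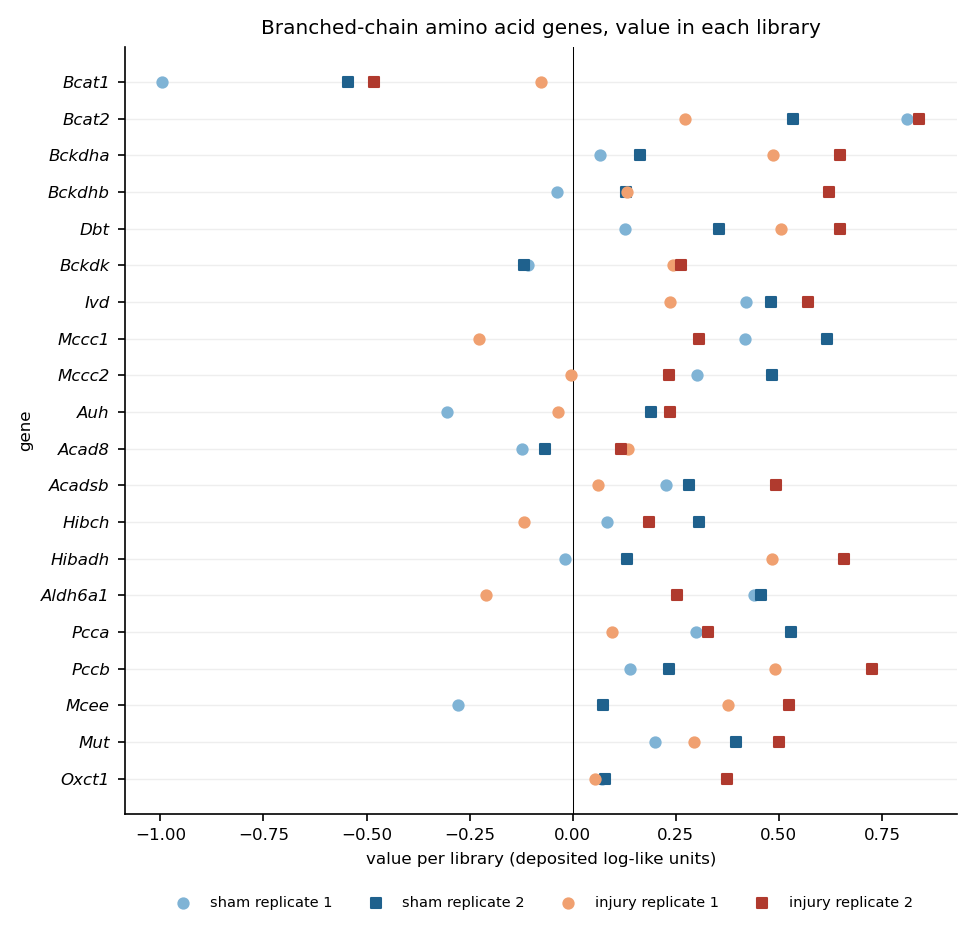
The horizontal axis gives the deposited value of each of the 20 branched-chain amino acid and ketone genes (rows) in each library, with circles for replicate 1 and squares for replicate 2, blue for sham and red or orange for injury. Both injury points lie to the right of both sham points in 9 genes and to the left in *Mccc1*, *Mccc2* and *Aldh6a1*, and in 18 genes injury replicate 2 lies to the right of injury replicate 1.

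Libraries of one group were not alike for these genes. Sham replicate 2 was above sham replicate 1 in 23 of the 24 TCA and pyruvate genes, by a median of 0.29, and in 18 of the 20 branched-chain amino acid genes, by a median of 0.16, whereas over all genes the median of that gap was -0.0083. The size of the differences thus depended on the sham library, and dropping sham replicate 1 left a median difference of 0.35 for the TCA and pyruvate genes, dropping sham replicate 2 one of 0.65. Injury replicate 2 was above injury replicate 1 in 18 of the 20 branched-chain amino acid genes, by a median of 0.24, and in 15 of the 24 TCA and pyruvate genes, by a median of 0.088. The widest gap of the 44 genes was 1.20 in *Pdk4*, followed by 0.70 in *Pcx*, 0.57 in *Bcat2*, 0.53 in *Mccc1* and 0.49 in *Bckdhb*. With injury replicate 2 dropped, the branched-chain amino acid genes had a median difference of 0.0089, and with injury replicate 1 dropped one of 0.26.

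**Figure D4:**
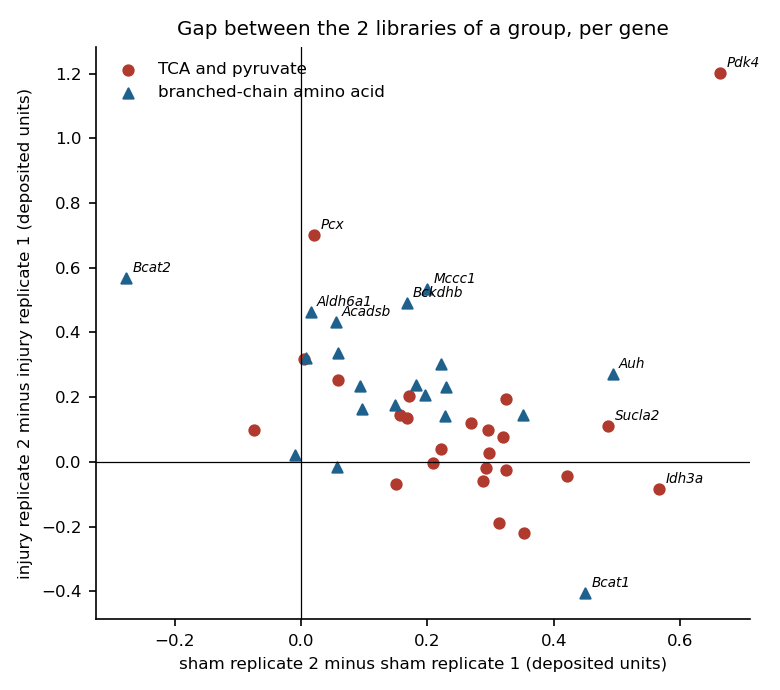
Each point is 1 gene, with the gap sham replicate 2 minus sham replicate 1 on the horizontal axis and injury replicate 2 minus injury replicate 1 on the vertical axis, both in deposited units. Of the 44 points 41 lie right of 0, 18 of 20 branched-chain amino acid genes (triangles) lie above 0, and *Pdk4* is furthest out, at 1.20 on the vertical axis.

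Markers of the cell types in this tissue differed between the libraries as well. Brown adipocyte markers, 11 of 12 analysed, were above the sham libraries in both injury libraries in 11 of 11 genes, against 31.6% of all genes. Of them 7 were called higher, where 3.76% of all genes were called higher and 3.67% lower. Some of these markers were, however, picked by the study from the same libraries. After quantile normalization 2 of the 11, *Kcnk3* and *Letmd1*, were called. The median over the list was 0.39 and 0.88 in the sham libraries and 1.75 and 1.77 in the injury libraries. The TCA and pyruvate genes had medians of -0.026 and 0.23 in the sham and of 0.58 and 0.63 in the injury libraries. In both lists sham replicate 1 had the lowest median and both injury medians lay above both sham medians, as was also so for the mitochondrial mass, macrophage and neutrophil lists. Of the brown adipocyte markers 6 of 11 were higher in injury replicate 1 than in replicate 2, and of the TCA and pyruvate genes 9 of 24. The 12 pan-adipocyte markers had medians of 0.24 and 0.34 after sham operation and of -0.15 and 0.29 after injury, with 1 gene, *Plin1*, called lower, and injury replicate 2 was above injury replicate 1 in 10 of the 12. The smooth muscle markers had that order in 6 of 6 genes and the endothelial markers in 7 of 8. The branched-chain amino acid genes also had a higher median in injury replicate 2 (0.43) than in injury replicate 1 (0.13), beside 0.11 and 0.26 in the sham libraries. The 12 genes taken for mitochondrial mass, which act in import, folding and maintenance of the organelle, differed by a median of 0.36, with 1 gene, *Hspd1*, called higher. Macrophage markers differed by a median of 1.27, with 4 of 10 called higher. Neutrophil markers, 6 of 7 analysed, had medians of -1.40 and -0.97 after sham operation and of 1.27 and 0.052 after injury, with 1 called higher. Skeletal muscle, which is rich in TCA enzymes too, was represented by 7 of 12 markers, with medians of 0.78 and -0.075 after sham operation and of -0.22 and -0.40 after injury. The median of these markers was highest in sham replicate 1, and 1 of the 7, *Pvalb*, was higher after injury (difference 1.11) though not called. Endothelial and smooth muscle markers of the vessel wall, 8 and 6 genes, had median differences of -0.71 and -2.15, with 3 and 4 called lower. Values whose 0 is not defined do not show whether a marker is near absence, and the part of these cell types in the differences of the metabolic genes was not tested.

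**Figure D5:**
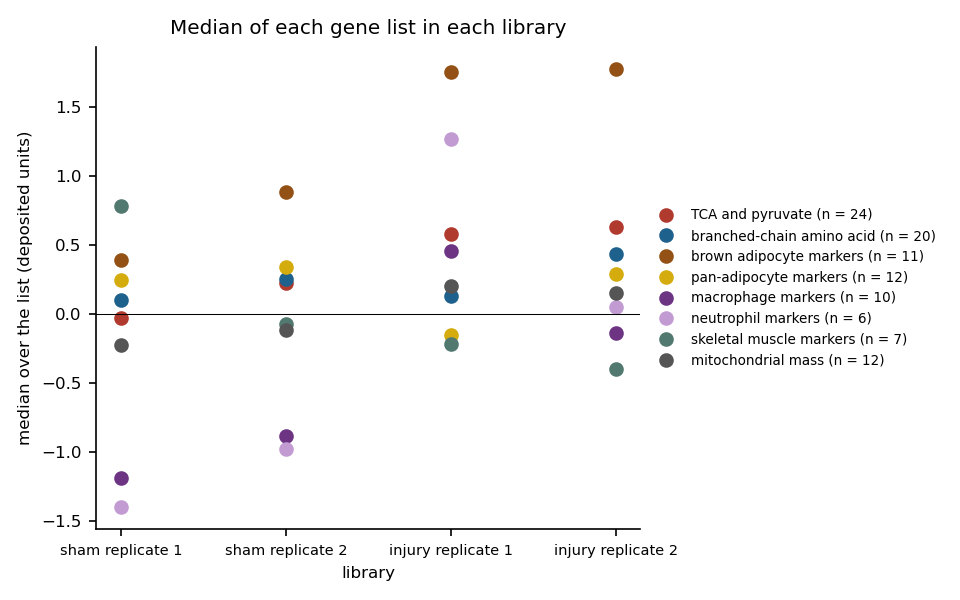
The vertical axis gives the median deposited value over each gene list, and the horizontal axis the 4 libraries. The TCA and pyruvate genes (red) and the brown adipocyte markers (brown) have both injury medians above both sham medians, as have the macrophage, neutrophil and mitochondrial mass lists, and the branched-chain amino acid genes (blue) have their highest median, 0.43, in injury replicate 2.

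Further genes of the same pathways, outside the list of 44, were read from a second list of which 48 of 52 were analysed. Of these, 5 were called higher and 1 lower, against 3.76% and 3.67% of all genes. The median difference was 0.18, beside 0.0085 over all genes. The subunits of succinate dehydrogenase, *Sdha*, *Sdhb*, *Sdhc* and *Sdhd*, differed by 0.54 to 0.68 and were not called, with adjusted p-values of 0.0545 to 0.0970 from limma, and in each the groups did not overlap. The succinate dehydrogenase genes were named after their values were seen. *Hadh* and *Acaa2*, which catalyse late steps of beta-oxidation, were higher by 1.09 and 1.25 (adjusted p = 0.0314 and 0.0291 from limma).

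Of the other calls in this second list, 3 concerned neutral amino acid transporters and a transaminase. *Slc7a8* and *Slc43a2*, which carry branched-chain and other large neutral amino acids across the cell membrane, had the 2 highest differences of the second list. *Slc7a8* was at -0.81 and -0.62 after sham operation and at 1.17 and 1.08 after injury, a difference of 1.84 (standard error 0.14, adjusted p = 0.0285 from limma). *Slc43a2* was at -0.97 and -1.14 and at 0.69 and 0.30, a difference of 1.55 (standard error 0.18, adjusted p = 0.0285 from limma). Other carriers of these amino acids, named after their values were seen, were not called. *Slc43a1*, of the same family as *Slc43a2*, was at 0.50 and 0.47 after sham operation and at -1.07 and 0.16 after injury (difference -0.94, 95% interval -1.93 to 0.047, adjusted p = 0.185 from limma). *Slc7a5* had a difference of 0.83 (adjusted p = 0.0524 from limma), and *Slc3a2*, the partner chain of *Slc7a8* and *Slc7a5*, one of -0.043 with overlapping groups. *Slc25a44*, named after its values were seen because it is the mitochondrial carrier known to bring branched-chain amino acids into brown fat mitochondria, read 0.15 and 0.10 after the sham operation against 0.26 and 0.093 after injury. Its groups overlapped and its difference of 0.053 had a 95% interval from -0.30 to 0.41. *Abat*, the GABA transaminase, which also acts on a valine metabolite, was at 1.06 and 0.62 after sham operation and at -0.66 and -0.37 after injury. It fell by 1.35 (standard error 0.21, adjusted p = 0.0308 from limma). All 6 calls of the second list were lost without either sham library, as were nearly all calls over all genes. Without sham replicate 1 the differences of *Slc7a8*, *Slc43a2* and *Abat* were 1.75, 1.64 and -1.13. Without injury replicate 1 *Slc7a8* and *Slc43a2* were still called, at differences of 1.80 and 1.36, and without injury replicate 2 *Slc7a8*, *Slc43a2*, *Abat*, *Hadh* and *Acaa2* were called.

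Promoters were searched for sequences bound by 2 factors that are known to drive mitochondrial genes. RefSeq promoters of GRCm38.p6 were found for 41 of the 44 genes, and the 250 bases before each start were read on both strands. The NRF1 sequence, GCGCA and GCGC with any base between them, was present in 3 of the 41 genes, 1 of 23 TCA and pyruvate genes and 2 of 18 branched-chain amino acid genes, against 4.23% of the 27025 genes of the promoter table, so that the share in the TCA and pyruvate genes (4.35%) was near that of all genes. TCAAGGTCA, the sequence of the estrogen-related receptors, was in 0 of the 41, against 0.422% of all genes, which says no more than that these letters are not in this window. The 3 NRF1 matches are shown with up to 10 bases on either side, 5′ to 3′ along the gene, and capitals mark the match. Their places in mm9 were found by matching the bases to the genome, at chr14:73952566-73952592 on the plus strand for *Sucla2*, at chr6:52590341-52590370 on the minus strand for *Hibadh* and at chr9:100935353-100935382 on the minus strand for *Pccb*.
Sucla2: ctgcgtctctGCGCCTGCGCggtgccc
Hibadh: agcaaggagaGCGCGTGCGCgagctgtcct
Pccb: cagcgacgacGCGCAGGCGCagactcgcaa
The matches begin 17 bases before the RefSeq start in *Sucla2*, 66 in *Hibadh* and 69 in *Pccb*. In the GENCODE annotation of mm9 the windows of *Sucla2* and *Hibadh* lie in annotated exons of these genes, and that of *Pccb* lies outside its gene, upstream of it. Of the 5 called genes *Sucla2* held the NRF1 sequence, and *Dlst*, *Ogdh*, *Cs* and *Pdha1* held neither sequence in these windows.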

How the data were processed

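Per the submitters' processing notes and the study's methods, the authors checked stranded mRNA libraries with FastQC 0.11.8, cut adaptors with cutadapt 1.18 and low-quality bases with Trimmomatic 0.39, mapped reads to mm9 by STAR 2.6.0a, and used featureCounts and DESeq2 1.28.0 in R 3.6.0. The deposited table holds, for 12661 genes and 4 libraries, a score that the authors did not define: signed values from -2.27 to 6.45, 50.5% of them below 0, with column medians within 0.0062 of 0, which were treated as log values. Neither their base nor what 0 stands for is given, and the means of single genes over the 4 libraries are not 0. The step from counts to these values, the filter on genes and the handling of reads that map to several places are not given in the sources used here. *Pdha1* has a near copy, *Pdha2*, that could share its reads. Depth is unknown, so no interval for counting error is given.

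Groups came from the labels, 2 libraries each. limma 3.58.1 in R 4.3.3 was fitted to all genes with no further filter (residual degrees of freedom 2, prior 3.48) and Benjamini-Hochberg adjustment, and was tested on simulated data. Summaries and figures used Python 3.11.15 with pandas 2.3.3, numpy 2.4.6 and matplotlib 3.10.9. Values per library are given for called genes, for the highest and lowest gene of each role group and for genes that share a step; other genes were named after their values were seen. The members and lists were chosen with earlier results of these data known. Alternatives were a robust variance prior, a replicate block, quantile normalization, scaling of each column to one spread, a threshold of 0.1 and leaving out each library. Coordinates are from GENCODE vM1 (mm9), which held all 44 genes, and promoters from the RefSeq table of GRCm38.p6. A gene of the second list that was called is counted but not reported here by name.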

Additional observations from a re-analysis of the deposited data

How the results depend on the processing

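The count tests that had been planned were not run, since the values are not counts. Over the 44 genes, the 4 other fits to all libraries gave 168 values on the same side of the threshold, 5 that lost a call, 3 that gained one and 0 that turned in sign. With an adjusted p-value under 0.1 from limma, 2317 genes were called in place of 941, of them 8 TCA and pyruvate genes in place of 5, 1 branched-chain amino acid gene (*Hibadh*) in place of 0, and 12 genes of the second list in place of 6. With 1 library left out, where the lone library is assumed to vary like the other group, the calls over all genes ranged from 0 (without sham replicate 1) and 1 (without sham replicate 2) through 284 (without injury replicate 1) to 1790 (without injury replicate 2). Those of the TCA and pyruvate genes ranged from 0 to 6 and those of the second list from 0 to 11, and the median difference of the TCA and pyruvate genes ranged from 0.35 to 0.65. The direction turned in 6 genes that were called in none of these fits, namely *Bcat2* (-0.40 to 0.17), *Ivd* (-0.22 to 0.12), *Auh* (-0.090 to 0.40), *Acadsb* (-0.19 to 0.24), *Mut* (-0.0035 to 0.20) and *Oxct1* (-0.022 to 0.30). The libraries share replicate numbers but no stated pairing, and the deviations of same-numbered libraries correlated at -0.094 over 12661 genes. With the replicate block 684 genes were called, 5 of the 11 brown adipocyte markers in place of 7, 4 of the TCA and pyruvate genes, 0 of the branched-chain amino acid genes and 5 of the second list. *Cs* and *Pdha1* were then not called and *Pdk4* was (adjusted p = 0.0685, 0.0624 and 0.0412 from limma). The causes were not tested, and depth limits cannot be given without counts.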

Other observations

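The rest of the second list held 3 gene groups that join these pathways. The 4 lipoic acid synthesis genes, which supply the cofactor of the pyruvate, 2-oxoglutarate and branched-chain dehydrogenase complexes, had a median difference of 0.23. Both injury libraries were higher in 3 of 4, against 31.6% of all genes. By limma 0 were called, at an unadjusted p-value under 0.05 also 0. The 7 glutamate and transaminase genes had a median difference of 0.061 and 0 calls by limma, with 1 higher and 1 lower at an unadjusted p-value under 0.05. In that group *Gpt2*, the mitochondrial alanine transaminase, had the lowest difference (-1.03, adjusted p = 0.0855 from limma) and *Got1*, the cytosolic aspartate transaminase, the highest (0.60, adjusted p = 0.147). The 10 other pyruvate genes analysed had a median difference of 0.087, with 0 called by limma and 0 at an unadjusted p-value under 0.05, and they included *Mpc1* and *Mpc2*, the subunits of the mitochondrial pyruvate carrier (0.17 and -0.081).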
